A study of Mus musculus with 14 samples.

Results

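Lin28a-RIP and m6A-RIP were compared gene by gene in Lin28a+ muscle stem cells (MuSCs), to see how far the RNA bound by Lin28a follows the RNA that carries N6-methyladenosine (m6A). Of the 14 libraries of the study, 4 entered the comparison: 2 Lin28a-RIP and 2 m6A-RIP libraries, all from Lin28a+ MuSCs. Another 2 libraries of the same cells, labelled input, which is RNA-seq without a pulldown, gave the RNA level. The cells had been sorted from skeletal muscle of Lin28a-CreERT2; LSL-tdTomato mice, in which cells that express Lin28a are marked by a red reporter, and were then cultured on Matrigel. No age was given in the sources used here, and nothing says whether the libraries of an assay came from separate mice or cultures, so the p-values measure only the spread between these libraries. No pulldown with an unspecific antibody, and no Lin28a-RIP library from control cells, was analysed here. The labels give total RNA for Lin28a-RIP and polyA RNA for m6A-RIP. The study's methods describe RNA cut into short fragments before the m6A pulldown and give no such step for Lin28a-RIP. The antibody, the RNA selection and the fragmentation thus cannot be told apart in any difference between the assays.

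In RIP-seq, an antibody pulls down a protein or a modified base together with its RNA, and peaks mark stretches of transcripts where reads pile up. The rows of each table were summed per gene and scaled to the count per 1000000 counts of that library (CPM). The Lin28a-RIP table held 21616 peaks in 3493 genes. The m6A-RIP file held 18881 rows in 9416 genes, with several rows for some transcripts. A total of 2767 genes were in both tables, out of 10142 genes in either. These were 79.2% of the Lin28a-RIP genes and 29.4% of the m6A-RIP genes.

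m6A is the commonest internal modification of mRNA. It is written by the Mettl3 and Mettl14 complex, removed by Fto and Alkbh5, and read by Yth domain proteins and by the Igf2bp family, to which Igf2bp3 belongs. Lin28a is an RNA-binding protein of embryonic and stem cells, known for blocking the maturation of let-7 microRNAs and for binding many mRNAs directly through a cold shock domain and zinc knuckles. In muscle it is known from early, proliferating progenitors.

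The Lin28a-RIP libraries held 36610494 and 33908110 counts and the m6A-RIP libraries 23747038 and 31173570. The input columns summed to 5057455 and 4842915 estimated counts. Replicate libraries of an assay gave nearly the same gene levels, with a Pearson's r across the 2767 genes of 0.998 for Lin28a-RIP and 0.997 for m6A-RIP on log2(CPM + 1). They still differed by more than sampling noise, since chi-square over its degrees of freedom was 7.54 and 7.80, and both were kept as libraries. The 10 largest m6A-RIP rows took 24.2% and 24.3% of all m6A-RIP counts, against 6.12% and 6.17% for the 10 largest Lin28a-RIP peaks. Of 10 myogenic markers, all were in the input table and 9 reached 10 CPM, with a summed level of 11854 and 12018 CPM. Of the markers of other cells, 2 of 5 fibro-adipogenic, 1 of 4 endothelial and 4 of 5 macrophage genes were listed, and each of these lists summed to at most 13.7 CPM. The pericyte and smooth muscle list summed to 7488 and 7500 CPM, nearly all of it Acta2, a smooth muscle actin also made by cultured myoblasts. The part of these cells in the results was not tested. Both m6A-RIP columns carry 1 name, and in the input table the Lin28a+ columns are named as m6A-RIP. These 4 columns were used by group only. That the input columns hold input rests on the table they stand in and could not be checked by name, so every value given at equal input depends on it. Lin28a itself was not analysed here.

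Genes with an m6A-RIP row more often had a Lin28a-RIP peak, and the share was larger at higher m6A-RIP levels. Among 11453 genes with at least 1 CPM in both input libraries, 2910 (25.4%) had a Lin28a-RIP peak. The share was 12.8% of 3937 genes without an m6A-RIP row (95% Wilson interval 11.7 to 13.8) and 32.0% of 7516 genes with one (31.0 to 33.1). Over quintiles of the m6A-RIP level, from lowest to highest, the share was 25.9%, 29.9%, 32.7%, 33.6% and 38.1%. The intervals of the lowest and the highest quintile, 23.7 to 28.1 and 35.6 to 40.5, did not overlap. Among genes with at least 10 CPM of input the shares were closer, 31.3% and 37.8%. The intervals treat genes as independent and cover counting error only.

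The RNA level moved with the m6A-RIP level, from a median input of 9.35 CPM in the lowest quintile to 83.6 CPM in the highest, so the shares were also taken within quintiles of the input. In every quintile of the input, genes without an m6A-RIP row had the lowest share with a Lin28a-RIP peak. Among the genes with the highest input, 16.4% of 483 without a row and 33.4% of 898 in the top m6A-RIP quintile had a peak. In the next lower quintile of the input these shares were 20.3% of 546 and 47.6% of 353. Between the lowest and the second highest m6A-RIP quintile the order was not steady. At the highest input the shares were 26.4%, 24.7%, 27.7% and 25.9%, with overlapping intervals. The step from no row to any row was thus seen at every RNA level, and the step to the highest m6A-RIP level had intervals apart from those of the lowest m6A-RIP quintile only in quintile 4 of the input (42.4 to 52.8 against 24.7 to 37.2).

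**Figure D1:**
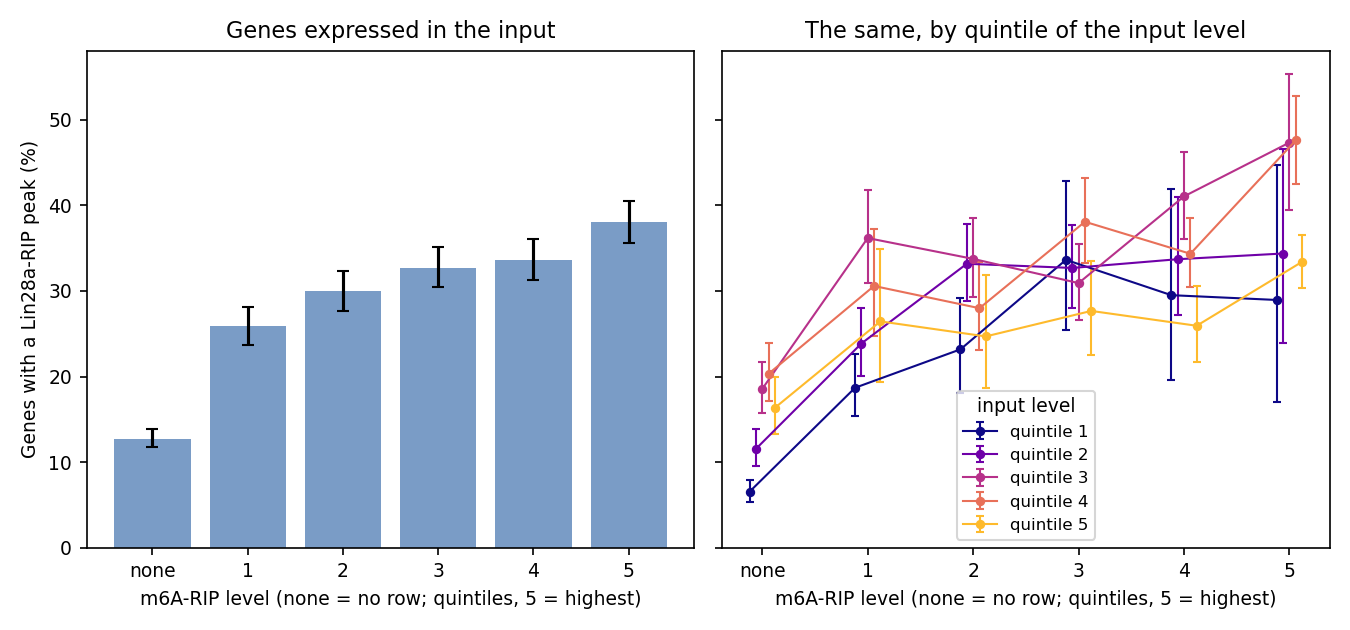
Percentage of expressed genes with a Lin28a-RIP peak (vertical axis) by m6A-RIP level (horizontal axis: no row, then quintiles from lowest to highest), for all 11453 genes (left, bars) and within quintiles of the input level (right, lines). Error bars are 95% Wilson intervals. Genes without an m6A-RIP row are lowest in every panel and line, at 12.8% overall.

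The RNA of the genes was at least 1 CPM in both input libraries for 2408 of 2767 shared genes (87.0%), 502 of 726 genes of Lin28a-RIP alone (69.1%) and 5108 of 6649 genes of m6A-RIP alone (76.8%). Among the genes that reached it, median input was 25.4 CPM for genes in both tables, 19.1 CPM for genes in the Lin28a-RIP table only and 23.1 CPM for genes in the m6A-RIP table only. The shared genes held 89.0% of the Lin28a-RIP counts but 42.3% of the m6A-RIP counts. The 726 genes of Lin28a-RIP alone had a median of 2 peaks and 37.2 CPM, against 4 peaks and 78.5 CPM for the shared genes. Among expressed genes, the highest without an m6A-RIP row were Ddb1, a subunit of the ultraviolet damage sensor, Eef2, the translocating elongation factor, Igf2r, the receptor that clears Igf2, Vcp, an ATPase that extracts ubiquitinated proteins, and Prpf8, the core of the spliceosome. Ddb1 stood at 3407 and 3301 CPM over 20 peaks. Eef2 had 3096 and 2914 CPM over 4 peaks, with 6890 and 6933 CPM in the input. A gene without a row in the table used here may still carry signal below the peak threshold.

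The highest expressed genes of the m6A-RIP table without a Lin28a-RIP peak were of another kind. Filip1l, a filamin-interacting protein, had 41486 and 44270 CPM, 99.7% of it in 1 of its 3 rows, at an input of 28.5 and 27.9 CPM. Hic2, Plekha1, Axin2 and Cdk8 followed with 10885 and 9418, 7704 and 6920, 7543 and 6426, and 5789 and 5792 CPM. The input of these 4 lay between 3.47 and 9.54 CPM. The last 4 thus combined a very high m6A-RIP level with little RNA, whereas the input of Filip1l was near the median. Of the m6A-RIP counts of Axin2 and of Cdk8, 99.8% were in 1 of 3 rows. The m6A-RIP rows have no positions, and whether such reads came from the mRNA of the named gene was not tested.

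Across the 2767 shared genes, the levels of the assays went together only loosely. Pearson's r on log2(CPM + 1) was 0.32 and Spearman's rho 0.30, and the 4 pairings of 1 Lin28a-RIP with 1 m6A-RIP library gave 0.316 to 0.322. Of the 277 genes in the top decile of each assay, 86 (31.0%) were in both. These are descriptions across genes, which are not independent replicates, and each point shares its library, depth and gene with the others.

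Both levels were also related to the RNA level. In 2498 of the genes with an input value, r with the input was 0.33 for Lin28a-RIP and 0.47 for m6A-RIP, and r between the assays was 0.31. At equal input it was 0.18. Within quintiles of the input it ran from 0.09 in the second quintile to 0.25 in the lowest, with 0.23 in the highest. Input alone accounted for 10.9% of the variance of the Lin28a-RIP level, m6A-RIP alone for 9.47% and both for 13.8%. For context, in 2028 genes that also had an Igf2bp3-RIP peak, r with Lin28a-RIP at equal input was 0.61 for Igf2bp3-RIP and 0.18 for m6A-RIP. The Igf2bp3-RIP and Lin28a-RIP tables both list peaks with positions, whereas the m6A-RIP table lists rows without them, and the part of this in the values was not tested.

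**Figure D2:**
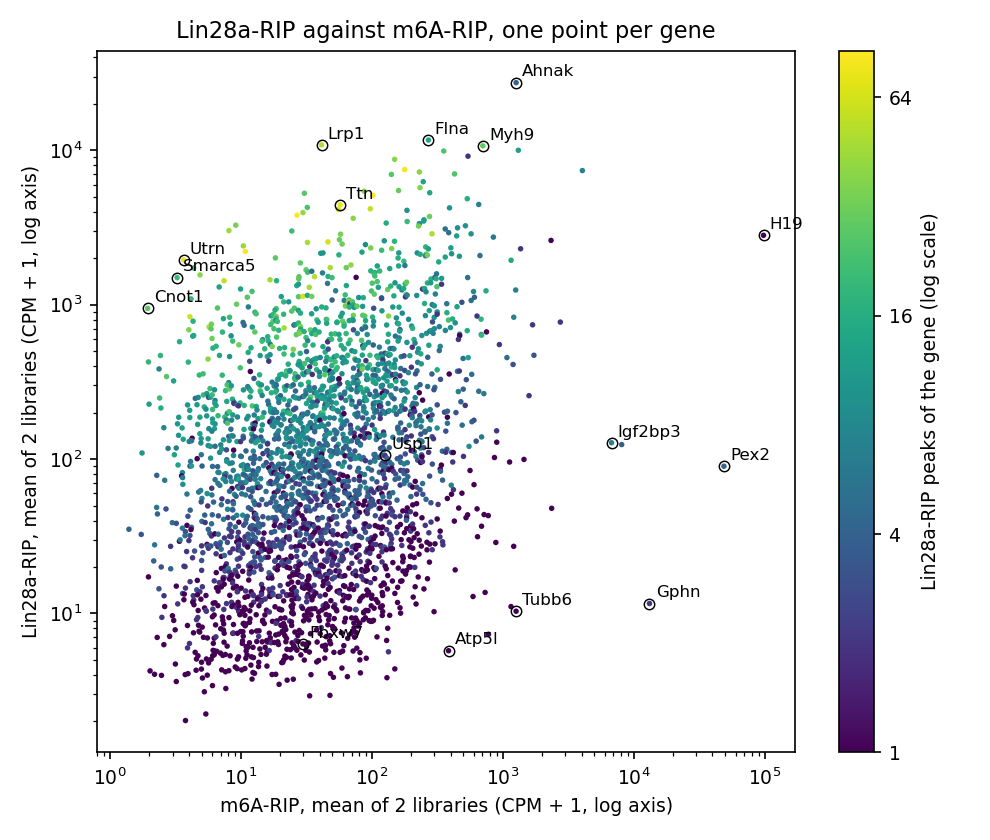
Lin28a-RIP level (vertical axis) against m6A-RIP level (horizontal axis) for the 2767 genes in both tables, each the mean CPM + 1 of 2 libraries on log axes. The colour gives the number of Lin28a-RIP peaks on a log scale and circles mark named genes. The cloud is broad, with r = 0.32, and genes with many peaks lie mostly at the top, at low and at high m6A-RIP levels.

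The summed Lin28a-RIP level adds up a gene's peaks, so a relation to their number is in part built into it. Its r with log2 of the peak number was 0.81, whereas the m6A-RIP level had an r of 0.02 with the same number. Peak number alone accounted for 67.4% of the variance of the Lin28a-RIP level. Genes with 1 peak had a median of 12.2 CPM in Lin28a-RIP and 33.0 CPM in m6A-RIP. Genes with 16 to 86 peaks had 725 CPM in Lin28a-RIP and 31.3 CPM in m6A-RIP. The median input of these 2 sets was 19.1 and 26.3 CPM, in that order.

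Per kilobase of peak, Lin28a-RIP was closer to m6A-RIP. Divided by the summed width of the gene's peaks, it had an r of 0.53 with the m6A-RIP level over 2767 genes. Its r with the input was 0.56, and at equal input that with m6A-RIP was 0.35. Input alone accounted for 31.9% of its variance, m6A-RIP alone for 27.0% and both for 40.1%. The top deciles by this measure and by m6A-RIP shared 132 of 277 genes (47.7%). Holding input and peak number equal gave an r of 0.40 for the summed level. The per-kilobase measure was chosen after the data had been seen, and its medians were still higher at higher peak numbers, from 39.1 CPM per kb in genes with 1 peak to 84.3 in genes with 16 or more.

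**Figure D3:**
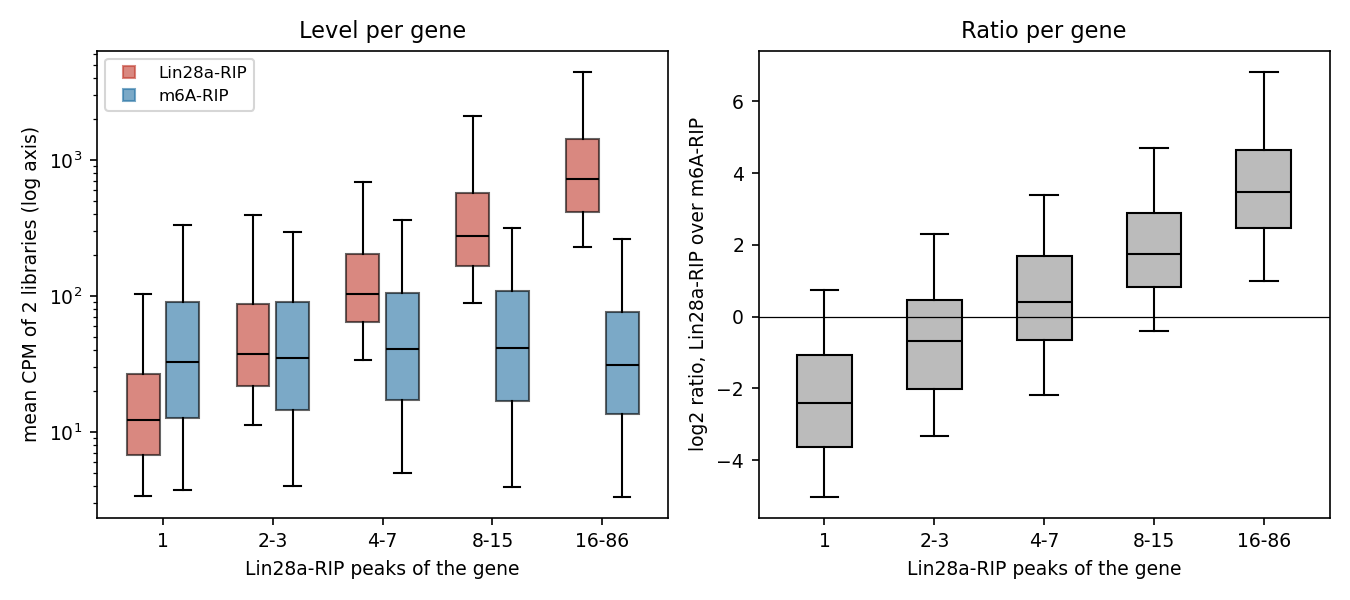
Levels of both assays (left, mean CPM on a log axis) and the log2 ratio of Lin28a-RIP over m6A-RIP (right) by the number of Lin28a-RIP peaks of the gene. Boxes span the interquartile range with the median as a line and whiskers run from the 5th to the 95th percentile. Lin28a-RIP medians climb from 12.2 to 725 CPM while m6A-RIP medians stay between 31.3 and 41.7 CPM.

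Nearly every shared gene had a Lin28a-RIP to m6A-RIP ratio that differed from the typical one. In the quasi-likelihood test of edgeR, scaled by TMM factors that centre the log2 ratios on the bulk of genes, 2581 of 2767 genes (93.3%) passed a Benjamini-Hochberg adjusted p of 0.05. Of these, 1309 (47.3%) were higher in Lin28a-RIP and 1272 (46%) lower. Over 4-fold, 620 genes (22.4%) were higher and 639 (23.1%) lower. The interquartile range of log2 ratios lay between -1.84 and 1.78, with a median standard error (SE) of 0.07. With library totals in place of TMM factors, ratios shifted by 1.06 on the log2 scale, the split became 1734 higher and 879 lower, and 242 genes were called in the opposite direction. Genes whose ratio is below 0 by less than that shift lie above 0 with totals. Below, higher and lower are therefore relative to the typical shared gene, and log2 ratios are given with their SE for 2 against 2 libraries.

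The genes with the highest ratios had long rows of Lin28a-RIP peaks and 1 or 2 weak m6A-RIP rows. Cnot1, the scaffold of the Ccr4-Not deadenylase that shortens mRNA tails, had 948 and 942 CPM in Lin28a-RIP over 28 peaks. In m6A-RIP it had 0.590 and 1.28 CPM, which were 14 and 40 reads in 1 row. Its log2 ratio was 8.85 ± 0.12 (adjusted p = 1.25e-10). Utrn, the dystrophin relative utrophin, followed with 1943 and 1949 CPM over 71 peaks against 2.61 and 2.69 CPM, a log2 ratio of 8.45 ± 0.05 (adjusted p = 3.75e-11). The libraries of the assays were far apart for both.

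Next came Smarca5, the motor of Iswi chromatin remodellers, Kif5b, a kinesin heavy chain, Mtr, methionine synthase, and Myof, the membrane repair protein myoferlin. Smarca5 had 1526 and 1466 CPM in Lin28a-RIP and 2.74 and 1.76 CPM in m6A-RIP. Kif5b had 1731 and 1722 CPM against 3.92 and 2.79 CPM, and Myof 3015 and 3018 CPM against 8.09 and 6.09 CPM. All 4 had 1 m6A-RIP row and 19 to 45 peaks, and their log2 ratios lay between 7.70 and 8.35. Mtr, with 428 and 421 CPM against 1.09 and 0.834 CPM, reached this from a lower Lin28a-RIP level.

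The lowest ratios belonged to genes with 1 to 4 Lin28a-RIP peaks. Gphn, the scaffold gephyrin of inhibitory synapses that also makes molybdenum cofactor, had 9.56 and 11.6 CPM in Lin28a-RIP and 12904 and 13524 CPM in m6A-RIP. Its log2 ratio was -11.35 ± 0.09 (adjusted p = 3.75e-11). Pex2, a ubiquitin ligase of peroxisomes, had 86.8 and 91.0 CPM against 46840 and 51037 CPM, with a log2 ratio of -10.16 ± 0.08 (adjusted p = 3.75e-11). In both genes a single row held nearly all m6A-RIP counts, 99.9% in Gphn and 99.8% in Pex2, at an input of 15.9 to 19.1 CPM. Whether the reads of these rows came from the mRNA of the named gene was not tested.

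The other 4 lowest were Tubb6, a beta tubulin, Csmd3, a large adhesion protein, Cerk, ceramide kinase, and Atp5l, subunit g of ATP synthase. Tubb6 was abundant in the input (948 and 970 CPM) and had 1270 and 1256 CPM in m6A-RIP, yet only 10.1 and 8.55 CPM in Lin28a-RIP in 1 peak of 202 bases. Atp5l likewise had 444 and 436 CPM of input and 5.08 and 4.39 CPM of Lin28a-RIP. Csmd3 had no value in the input table used here, with 771 and 783 CPM in m6A-RIP. Log2 ratios of these 4 ran from -8.13 to -7.40.

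**Figure D4:**
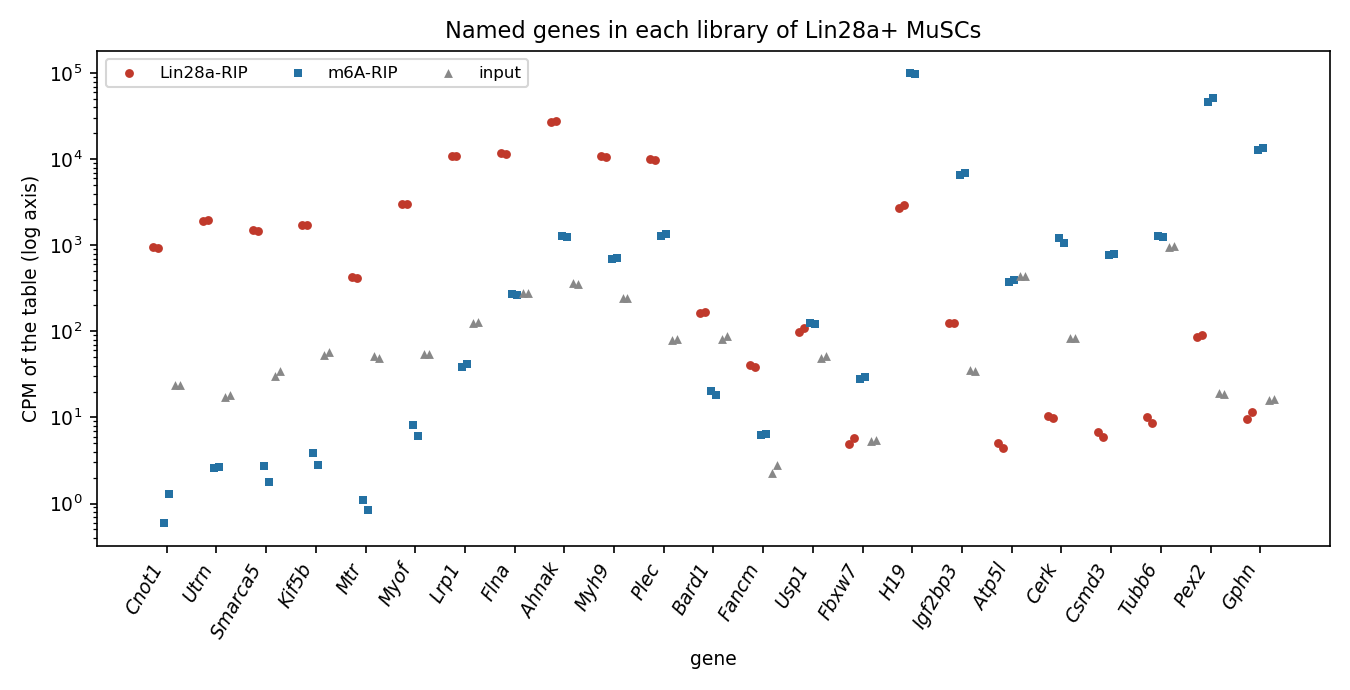
CPM of named genes in each library of Lin28a+ MuSCs on a log axis, with Lin28a-RIP as circles, m6A-RIP as squares and input as triangles, 2 libraries each. From Cnot1 to Gphn the order runs from genes far higher in Lin28a-RIP to genes far higher in m6A-RIP, and the 2 libraries of an assay lie close together. H19 and Csmd3 have no input value.

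The highest summed Lin28a-RIP levels were those of giant cytoskeletal and membrane proteins, which also had moderate to high m6A-RIP levels. Ahnak, a giant membrane scaffold, had 27248 and 27567 CPM in Lin28a-RIP, 95.9% of it in 1 of 4 peaks, and 1271 and 1257 CPM in m6A-RIP over 17 rows. Per kilobase of peak its Lin28a-RIP level was 1418 CPM, against a median of 49.3 for all shared genes. Flna, which crosslinks actin, had 11816 and 11486 CPM and Myh9, the heavy chain of non-muscle myosin, 10789 and 10585 CPM. Both were also above the median m6A-RIP level of 36.7 CPM, at 273 and 266 CPM for Flna and 692 and 713 CPM for Myh9. Lrp1, an endocytic receptor, had 10880 and 10808 CPM over 52 peaks but 38.4 and 42.0 CPM in a single m6A-RIP row.

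H19 led the m6A-RIP table. This imprinted long non-coding RNA, abundant in fetal and regenerating muscle, had 99786 and 96611 CPM in m6A-RIP and 2689 and 2933 CPM in Lin28a-RIP. Its single Lin28a-RIP peak of 257 bases made 10938 CPM per kb. The log2 ratio was -6.19 ± 0.06 (adjusted p = 5.07e-11), so H19 was high in both assays and lower in Lin28a-RIP only in relation to its m6A-RIP level. It had no value in the input table used here, so its level could not be set against its RNA.

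At equal input, genes high in both assays and genes low in both were each more numerous than genes split between them. Beyond 1 standard deviation (SD) of the residuals on input, 105 of 2498 genes were high in both, 113 low in both, 51 high in Lin28a-RIP and low in m6A-RIP, and 34 the reverse. The furthest in both were Ell3, a transcription elongation factor, Plec, the cytolinker plectin, and Zim1, an imprinted zinc finger gene. Ell3 had 1564 and 1602 CPM in Lin28a-RIP and 316 and 306 CPM in m6A-RIP at an input of 0.659 and 0.688 CPM. Zim1 had 9096 and 9210 CPM and 538 and 545 CPM at 18.9 and 20.8 CPM of input. Low in both were Dync2li1, Fam160b1 and Ifi211, each with 1 peak and 1 row. Dync2li1, a light chain of the ciliary dynein, had 3.96 and 4.19 CPM in Lin28a-RIP and 4.72 and 4.17 CPM in m6A-RIP at 40.9 and 37.1 CPM of input. The split genes included Utrn, Smarca5 and Kif5b on the Lin28a-RIP side, and Cerk, Tubb6 and Tubb2b, another beta tubulin, on the m6A-RIP side.

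Gene groups differed in how much of the Lin28a-RIP signal they took for their m6A-RIP level. Across all shared genes the log2 ratio rose with the number of Lin28a-RIP peaks, with an r of 0.74 with log2 of that number. Its median ran from -2.42 in genes with 1 peak to 3.48 in genes with 16 to 86. The group medians were not adjusted for peak number, and its part in them was not tested. Groups are described by the number of genes called in each direction and by the distance of their median log2 ratio from that of all shared genes, which does not depend on the scaling of the libraries. The backgrounds are the 47.3% called higher and 46% called lower over all genes and, for expressed genes, the 25.4% with a Lin28a-RIP peak and the 65.6% with an m6A-RIP row.

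Transcripts of the m6A machinery were often in both tables and had ratios on the m6A-RIP side. Of 13 shared genes, 3 were higher in Lin28a-RIP and 10 lower, with a median 0.69 below that of all genes. Of these 10, 5 had ratios between -1.05 and -0.27 and would be above 0 with library totals. Of 25 expressed genes on the list, 22 (88%) had an m6A-RIP row and 15 (60%, 95% interval 40.7 to 76.6) a Lin28a-RIP peak, both above the shares of all expressed genes. The writer subunits Mettl3, Mettl14 and Wtap and the eraser Fto had m6A-RIP rows and no Lin28a-RIP peak. The eraser Alkbh5 had 20.3 and 16 CPM in Lin28a-RIP against 91.8 and 91.1 CPM, a log2 ratio of -3.39 ± 0.10 (adjusted p = 1.01e-08). On the other side Fmr1, the fragile X protein that reads m6A, had 258 and 256 CPM against 14.7 and 12.4 CPM (3.20 ± 0.07, adjusted p = 1.6e-09), and Virma, the scaffold of the writer complex, had a ratio of 0.93 ± 0.04 (adjusted p = 7.34e-08).

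The reader Igf2bp3 had the lowest ratio of this list. Its Lin28a-RIP level was 126 and 127 CPM over 7 peaks, the largest of which held 19.8% of its counts. Its m6A-RIP level was 6540 and 7008 CPM, all in 1 row, at an input of 35.8 and 34.3 CPM. Whether the reads of that row came from Igf2bp3 mRNA was not tested. The log2 ratio was -6.80 ± 0.06 (adjusted p = 4.32e-11). Against its RNA level, m6A-RIP stood 4.37 residual SD above the line and Lin28a-RIP 0.18.

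Known let-7 targets and Lin28 partners were divided between the tables. Of 27 expressed genes, 21 had an m6A-RIP row and 11 (40.7%, 95% interval 24.5 to 59.3) a Lin28a-RIP peak, against 65.6% and 25.4% of all expressed genes, so the share with a peak could not be told from that background. Of the 8 shared genes, 5 were higher and 2 lower, with a median 1.30 above that of all genes, or 0.53 with only the highest row of each gene. Ddx3x, an RNA helicase, had 2456 and 2439 CPM in Lin28a-RIP and 87.0 and 89.6 CPM in m6A-RIP (3.73 ± 0.04, adjusted p = 5.18e-11). Igf1r, the growth factor receptor, had 643 and 644 CPM against 47.0 and 49.0 CPM (2.68 ± 0.04, adjusted p = 2.84e-10). The cell cycle phosphatase Cdc25a was low in both assays, at 4.53 and 4.54 CPM and 6.11 and 5.84 CPM (-1.45 ± 0.15, adjusted p = 2.94e-05). The classical let-7 targets Hmga2, Igf2bp2 and Myc had m6A-RIP rows and no Lin28a-RIP peak, whereas Nras and Tgfbr1 had Lin28a-RIP peaks and no m6A-RIP row.

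No let-7 hairpin was covered by a Lin28a-RIP peak, although some peaks were listed under microRNA genes. Of 133 such genes in the Lin28a-RIP table, 111 had a hairpin in the RefSeq table used here. These held 366 peaks, and 42 of them (11.5%) overlapped the hairpin of that gene (GRCm38.p6), at a median distance of 3782 bases. The name of such a row is therefore mostly not a sign that the hairpin was covered. The let-7 family is represented by Mir98, which had 427 and 430 CPM in Lin28a-RIP and 9.98 and 11.4 CPM in m6A-RIP (log2 ratio 4.26 ± 0.06, adjusted p = 2.02e-10). Its 3 peaks lay 656 to 3366 bases from the hairpin, the nearest at chrX:151913977-151914392, and both the peaks and the hairpin were inside the span of the host gene Huwe1. Mirlet7i had an m6A-RIP row and no Lin28a-RIP peak, the nearest being 9499 bases away. None of the 12 let-7 family hairpins in RefSeq was overlapped. How well these libraries capture RNA as short as a hairpin was not tested, so a hairpin without a peak may still be bound. The mature sequences of these listed genes are shown because they carry the shared seed (bases 2 to 8, in capitals) that defines the family, Mir98 on the plus strand at chrX:151913229-151913250 and Mirlet7i on the minus strand at chr10:122985698-122985719 of GRCm38.p6.
miR-98-5p: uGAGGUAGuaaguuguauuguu
let-7i-5p: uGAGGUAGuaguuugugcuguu

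DNA repair genes were bound more often than genes at large but split in ratio. Of 74 expressed genes on a general list, 46 (62.2%, 95% interval 50.8 to 72.3) had a Lin28a-RIP peak and 51 (68.9%) an m6A-RIP row. Among 35 shared genes, 19 were higher, 11 lower and 5 not called, and the median was 0.55 above that of all genes, or 0.63 with the highest row of each gene. Per kilobase of peak, their median Lin28a-RIP level was 33.1 CPM, below the 49.3 CPM of all shared genes. Atm, the kinase that senses double-strand breaks, had 442 and 444 CPM in Lin28a-RIP over 38 peaks and 4.17 and 5.04 CPM in 1 m6A-RIP row (5.51 ± 0.07, adjusted p = 1.14e-10). Mre11a, the nuclease that starts their repair, had 35.1 and 33.2 CPM against 0.337 and 0.449 CPM (5.35 ± 0.18, adjusted p = 2.19e-08). At the other end, Rad54l, a motor protein of homologous recombination, had 3.47 and 3.39 CPM against 56.4 and 59.7 CPM (-5.14 ± 0.09, adjusted p = 4.31e-10). Xrcc6, which is Ku70, had 7.65 and 6.93 CPM against 74.1 and 80.9 CPM (-4.47 ± 0.09, adjusted p = 8.28e-10). Atr, Brca2, Rad50 and Rif1 had Lin28a-RIP peaks and no m6A-RIP row.

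A second list held the 13 repair-linked genes that the study assayed in these cells, so their presence in both tables is not independent evidence. Of these 13, 7 were higher in Lin28a-RIP, 5 lower and 1, Wrn, was not called, with a median 0.39 above that of all genes, or 0.63 with the highest row of each gene. Their median per kilobase of peak was 39.1 CPM. Bard1, the partner of Brca1, had 165 and 166 CPM against 20.2 and 18.2 CPM (2.06 ± 0.06, adjusted p = 1.05e-08). Smarcad1, a remodeller that aids resection, had the highest ratio of the list at 5.00 ± 0.08 (adjusted p = 3.56e-10).

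Usp1 and Fancm, which act in the Fanconi anaemia pathway, lay on opposite sides. Usp1, the deubiquitinase of that pathway, had 99.5 and 110 CPM in Lin28a-RIP and 127 and 123 CPM in m6A-RIP, with 3 peaks and 3 rows. Its log2 ratio was -1.31 ± 0.06 (adjusted p = 9.44e-08), and -0.04 and 0.72 residual SD placed both assays near what its RNA level of 49.3 and 52.3 CPM would give. Fancm, a translocase that remodels stalled forks, had 41.2 and 38.3 CPM in Lin28a-RIP and 6.23 and 6.48 CPM in m6A-RIP (1.58 ± 0.10, adjusted p = 1.34e-06), at an input of 2.26 and 2.82 CPM, and its residuals of 0.05 and -0.66 SD were likewise near the line. Fbxw7, a ubiquitin ligase subunit, had 4.86 and 5.84 CPM in a single Lin28a-RIP peak against 27.7 and 29.7 CPM in m6A-RIP (-3.49 ± 0.12, adjusted p = 2.91e-08). Upf1, the helicase of nonsense-mediated decay, had a ratio of -1.34 ± 0.07 (adjusted p = 4.28e-07). Twist2 was in neither table, at 1.38 and 0.929 CPM of input.

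Genes of the cell cycle and mitosis leaned to Lin28a-RIP. Of 69 expressed genes, 43 (62.3%) had a Lin28a-RIP peak and 47 (68.1%) an m6A-RIP row. Among 30 shared genes, 25 were higher and 4 lower, 15 and 0 of them over 4-fold, and the median was 2.05 above that of all genes, or 1.21 with only the highest row of each gene. The list had a median of 12.5 Lin28a-RIP peaks and a median log2 ratio of 2.09. All shared genes with 8 to 15 peaks had a median log2 ratio of 1.75. Ect2, the exchange factor that starts cytokinesis, had 631 and 629 CPM against 3.79 and 2.92 CPM (6.52 ± 0.08, adjusted p = 7.85e-11). Kif20b, a mitotic kinesin, had 209 and 217 CPM against 1.35 and 1.54 CPM (6.13 ± 0.09, adjusted p = 1.67e-10). Wee1, the kinase that holds cells before mitosis, was among the lower genes, with 27.2 CPM in both Lin28a-RIP libraries against 36.8 and 31.0 CPM (-1.37 ± 0.09, adjusted p = 1.83e-06). Smc2, Cenpe and Anln, with 1341 and 1359, 1109 and 1127, and 1150 and 1174 CPM in Lin28a-RIP, had no m6A-RIP row, while the cyclin D genes Ccnd1 and Ccnd3 had m6A-RIP rows and no Lin28a-RIP peak. The third cyclin D gene, Ccnd2, had 705 and 718 CPM in Lin28a-RIP over 5 peaks against 93.0 and 84.2 CPM (1.95 ± 0.05, adjusted p = 3.14e-09).

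Giant cytoskeletal transcripts and the extracellular matrix and integrin list had the highest median ratios among lists of at least 7 shared genes. Their median log2 ratios, 3.57 and 3.38 in that order, were near the 3.48 of all shared genes with 16 to 86 Lin28a-RIP peaks. Of 40 expressed giants, 39 had a Lin28a-RIP peak and 37 an m6A-RIP row. Among 36 shared genes, 34 were higher, 27 of them over 4-fold, and 2 lower, with a median 3.53 above that of all genes and a median of 28.5 peaks. Sptan1, the alpha chain of spectrin, had 3270 and 3269 CPM against 6.86 and 9.40 CPM (7.56 ± 0.09, adjusted p = 8.87e-11). The exceptions were Map4, which binds microtubules (-1.16 ± 0.03, adjusted p = 6.3e-09), and Nes, the progenitor filament nestin, whose 2346 and 2255 CPM against 1377 and 1358 CPM gave -0.31 ± 0.03 (adjusted p = 3.42e-05) and would be positive with library totals.

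In the matrix list, 19 of 26 shared genes were higher and 6 lower, with a median 3.35 above that of all genes and a median of 18.5 peaks. Col12a1, a collagen along fibrils, had 1417 and 1440 CPM over 56 peaks against 5.47 and 7.38 CPM (6.71 ± 0.09, adjusted p = 1.1e-10). Itgav, an integrin alpha chain, had 1109 and 1122 CPM against 9.10 and 11.3 CPM (5.70 ± 0.08, adjusted p = 1.25e-10). Sparc, a secreted collagen-binding protein, and Serpinh1, the collagen chaperone, were the reverse, each with 1 Lin28a-RIP peak. Sparc had 99.8 and 97.2 CPM against 1473 and 1430 CPM (-4.94 ± 0.04, adjusted p = 3.75e-11), and Serpinh1 103 and 99.3 CPM against 857 and 870 CPM (-4.15 ± 0.04, adjusted p = 4.95e-11). Median Lin28a-RIP per kilobase of peak was 154 CPM in the giants and 163 CPM in the matrix list, against 49.3 CPM in all shared genes. With only the highest row of each gene, their medians stood 2.76 and 1.61 above that of all genes.

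Ribosomal protein transcripts were largely outside the Lin28a-RIP table. Of 75 expressed ribosomal protein genes, 34 (45.3%) had an m6A-RIP row and 3 (4.00%, 95% interval 1.37 to 11.1) a Lin28a-RIP peak, against 25.4% of all expressed genes. Of these 3, 1 was lower in Lin28a-RIP, and Rps13 and Rps6 were higher, with 130 and 131 CPM against 3.24 and 3.14 CPM for Rps13 and 118 and 125 CPM against 5.18 and 4.04 CPM for Rps6. Ribosomal protein genes have many processed copies in the genome, among which reads could be split. The part of this in the share with a peak was not tested. Of 67 expressed histone genes, 23 had an m6A-RIP row and 1, H4c17, a Lin28a-RIP peak.

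Oxidative phosphorylation genes had m6A-RIP rows at nearly the share of all expressed genes (65.6%). Of 54 expressed genes, 38 (70.4%) had an m6A-RIP row and 8 (14.8%, 95% interval 7.70 to 26.6) a Lin28a-RIP peak, an interval that includes the 25.4% of all expressed genes. Of the 7 shared genes, 3 were higher and 4 lower. The largest ratio was that of Sdha, the flavoprotein of complex II, with 750 and 745 CPM over 13 peaks against 7.50 and 7.09 CPM (5.62 ± 0.05, adjusted p = 4.53e-11). The list's median was 0.38 below that of all genes and 0.69 above it when only the highest row of each gene was used. TCA cycle genes were bound more often, 16 of 27 (59.3%), and of 10 shared genes 4 were higher and 6 lower, with a median of -1.10 relative to all genes, or -0.15 with the highest row of each gene. Dld, a dehydrogenase subunit, had 310 and 313 CPM against 7.41 and 6.70 CPM (4.41 ± 0.06, adjusted p = 1.4e-10), and Dlst, its partner subunit, 36.7 CPM in both Lin28a-RIP libraries against 158 and 171 CPM (-3.22 ± 0.06, adjusted p = 5.37e-10).

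**Figure D5:**
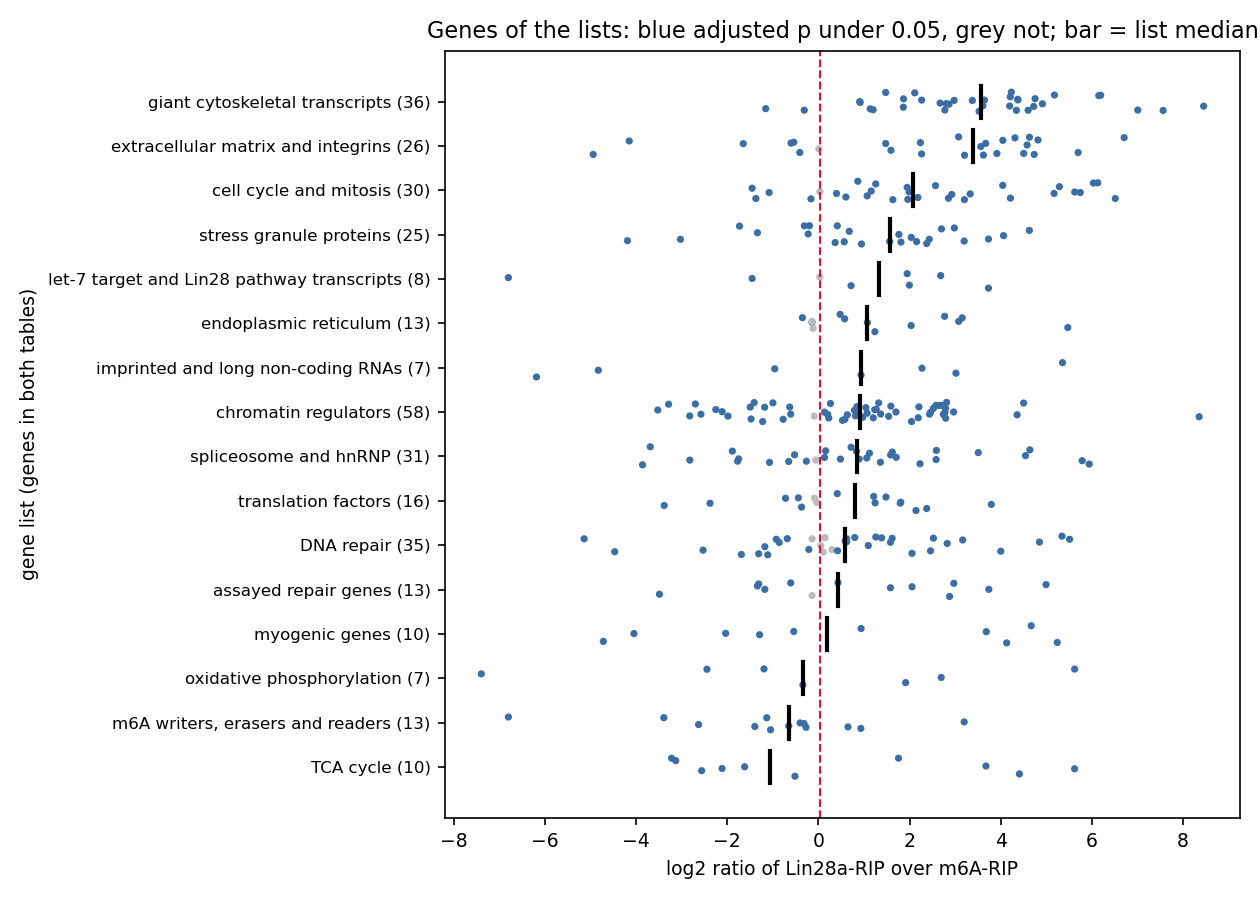
Log2 ratio of Lin28a-RIP over m6A-RIP (horizontal axis) for each shared gene of 16 lists, with the number of shared genes in brackets. Blue points passed an adjusted p of 0.05, grey did not, black bars are list medians and the dashed line is the median of all 2767 genes. Giant cytoskeletal and matrix genes lie mostly to the right, and m6A machinery genes have a median left of the line.

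Endoplasmic reticulum genes had a Lin28a-RIP peak in 18 of 40 cases (45%, 95% interval 30.7 to 60.2), and 9 of 13 shared genes were higher and 2 lower, with a median 1.04 above that of all genes, or 0.51 with the highest row of each gene. Pdia3, a disulfide isomerase of the folding cycle, had 964 and 968 CPM against 10.0 and 10.7 CPM (5.47 ± 0.05, adjusted p = 4.7e-11), whereas Calr, its lectin partner calreticulin, lay near the typical ratio at -0.14 ± 0.04 (adjusted p = 0.0161) and would be above 0 with library totals.

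Shared genes of RNA metabolism stood high in both assays. A Lin28a-RIP peak was present in 20 of 39 expressed translation factors (51.3%) and 35 of 53 expressed spliceosome and hnRNP genes (66.0%). Translation factors had a median of 464 CPM in Lin28a-RIP and 187 CPM in m6A-RIP, and spliceosome and hnRNP genes 413 and 153 CPM, against 78.5 and 36.7 CPM for all shared genes. Their RNA was also more abundant, with a median input of 162 and 63.7 CPM against 24.0 CPM for all shared genes with an input value. At equal input their median residuals were 0.70 SD in Lin28a-RIP and 0.62 SD in m6A-RIP for translation factors, and 1.02 and 0.64 SD for splicing genes. Of 16 shared translation factors, 9 were higher and 5 lower, and of 31 splicing genes, 20 and 10, with medians 0.78 and 0.80 above that of all genes, or 0.44 and 0.42 with the highest row of each gene. Eif4g1, the scaffold of cap-dependent initiation, had 4254 and 4214 CPM against 386 and 396 CPM (2.38 ± 0.03, adjusted p = 1.81e-10). Sf3b1, which recognises the branch point, had 3021 and 2976 CPM against 24.4 and 22.5 CPM (5.94 ± 0.05, adjusted p = 3.75e-11). Hnrnpab and Hnrnpa0, which package nascent RNA, were lower, with log2 ratios of -3.86 ± 0.05 and -3.69 ± 0.06 (adjusted p = 1.03e-10 and 2.53e-10). Stress granule proteins were bound in 27 of 34 cases (79.4%, 95% interval 63.2 to 89.7), and 18 of 25 shared genes were higher and 7 lower. Their median was 1.53 above that of all genes, or 1.16 with the highest row of each gene, and they had a median of 9 peaks. At equal input their median residuals were 0.87 SD in Lin28a-RIP and 0.56 SD in m6A-RIP. Fxr2, a relative of Fmr1, had 22.6 and 22.5 CPM against 174 and 219 CPM (-4.19 ± 0.12, adjusted p = 7.15e-09).

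Chromatin regulators were in both tables more often than most lists, with a Lin28a-RIP peak in 58 and an m6A-RIP row in 68 of 69 expressed genes. Of the 58 shared genes, 40 were higher and 17 lower, with a median 0.89 above that of all genes, or 0.82 with the highest row of each gene. The list had a median of 10.5 Lin28a-RIP peaks. Chd1, a remodeller, had 775 and 785 CPM against 17.4 and 15.7 CPM (4.50 ± 0.05, adjusted p = 7.53e-11). Smarcc2, a Baf complex core subunit, had 51.7 and 50.6 CPM against 253 and 310 CPM (-3.52 ± 0.10, adjusted p = 7.47e-09). Zinc finger genes of the Zfp, Zbtb, Zscan and Zkscan families had a Lin28a-RIP peak in 78 of 351 cases (22.2%, 95% interval 18.2 to 26.9), an interval that includes the 25.4% of all expressed genes. Of 72 shared genes 23 were higher and 41 lower, with a median of -0.58 relative to all genes, or -0.21 with the highest row of each gene.

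The share of muscle genes with a Lin28a-RIP peak could not be told from that of genes at large. Of 36 expressed myogenic genes, 30 (83.3%) had an m6A-RIP row and 12 (33.3%, 95% interval 20.2 to 49.7) a Lin28a-RIP peak, against 65.6% and 25.4% of all expressed genes. The determination factors Myod1 and Myf5 and the differentiation factor Myog had m6A-RIP rows, Myod1 at 1689 and 1715 CPM, and no Lin28a-RIP peak. Of the 10 shared genes, 5 were higher and 5 lower, with a median 0.16 above that of all genes, or 0.71 with the highest row of each gene. Ttn, the giant spring titin, had 4352 and 4517 CPM over 74 peaks against 57.5 and 55.0 CPM (5.24 ± 0.04, adjusted p = 4.32e-11). Ncam1, an adhesion molecule of myoblasts, had 843 and 849 CPM against 16.3 and 15.6 CPM (4.67 ± 0.04, adjusted p = 4.78e-11). Cdh15, the satellite cell cadherin, had 45.4 and 39.7 CPM in Lin28a-RIP against 540 and 536 CPM in m6A-RIP, at 2286 and 2373 CPM of input (-4.72 ± 0.06, adjusted p = 1.36e-10). Pax7, the marker of the lineage, had 16.4 and 16.3 CPM in 1 Lin28a-RIP peak and 29.0 and 35.2 CPM in m6A-RIP.

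Imprinted and long non-coding RNAs spread widely. Of 7 shared genes, 4 were higher and 3 lower, with log2 ratios from -6.19 for H19 to 5.36 for Airn and a median 0.90 above that of all genes, or 1.56 with the highest row of each gene. Norad and Plagl1, at -0.96 and 0.94, lay within the interquartile range of all genes. Airn, which silences Igf2r, had 626 and 628 CPM in Lin28a-RIP against 8.04 and 6.77 CPM in m6A-RIP (5.36 ± 0.06, adjusted p = 9.25e-11). Airn overlaps Igf2r on the other strand and the counting is not stated to use strand, so their reads cannot be told apart. Peg10, a domesticated retrotransposon gene, had 45.5 and 47.7 CPM against 641 and 630 CPM (-4.83 ± 0.04, adjusted p = 4.41e-11).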

How the data were processed

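The values deposited by the authors are unscaled: counts in whole numbers for each peak or row of the RIP libraries, and estimated counts for each gene of the input. Their methods and processing notes name HISAT2 2.0.4, MACS2 1.4.3 and FastQC, with GRCh38 (a human assembly) beside mm10, while all identifiers are mouse. The counting program, the peak threshold and the pooling of replicates are not given in the sources used here. Here rows were summed by Entrez gene and divided by the table total (CPM), and 99.8% of the input genes were joined by symbol. Levels were compared as log2(CPM + 1), a pseudocount of 1 CPM. Genes in both tables were tested with edgeR 4.0.16 (R 4.3.3) in a quasi-likelihood model, with TMM factors, filterByExpr, which all 2767 genes passed, and a Benjamini-Hochberg adjusted p under 0.05. DESeq2 1.42.0 was an alternative. Before use, the test was checked on simulated counts in which a small share of genes changed, evenly in both directions. Most genes were called in the data, so that check does not cover the setting of this comparison. TMM factors assume that most shared genes keep one ratio between the assays. With 93.3% of genes called this was not met, so the near-even split of higher and lower genes depends on the centring. Intervals are Wilson 95% intervals for shares. The RIP depth of 23747038 to 36610494 counts left counting error small, except at m6A-RIP levels of a few reads. Control libraries, and Igf2bp3-RIP beyond its correlations with both assays, were left out. Genes and gene lists were chosen with earlier results of these data known. The text names the genes with the highest and lowest ratios, the highest levels in each table, those in 1 table only, those far from the line on input in both assays, the highest and lowest called genes of each list, and genes of the study. A few genes under this rule are not reported here. Genes listed only for having a row in 1 table, other than the highest, and Mir98, Mirlet7i, Pax7, Ccnd2, Norad, Plagl1 and Wrn were chosen after their values were seen.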

Additional observations from a re-analysis of the deposited data

How the results depend on the processing

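No paired analysis was possible because the m6A-RIP columns share 1 name and carry no replicate numbers. The counts of called genes stayed within 1.5 times under each alternative except 2. With library totals, 999 genes were over 4-fold higher and 320 lower in Lin28a-RIP, since totals shift every ratio. With the highest row per gene, 416 were over 4-fold lower. Leaving out a library, where the lone library of an assay is assumed to vary like the others, gave 1291 to 1304 genes higher, 1256 to 1269 lower, 615 to 623 over 4-fold higher and 634 to 641 over 4-fold lower, and r of 0.317 to 0.322, or 0.180 to 0.184 at equal input. The r between the assays was 0.325 with a pseudocount of 10 CPM, 0.405 with the highest row per gene, 0.310 over all input genes with missing ones at 0 CPM and, in alternatives chosen after the data were seen, 0.323 without the genes of the 10 largest m6A-RIP rows, 0.312 in protein-coding genes, 0.379 by transcript and 0.530 per kilobase of peak. At equal input it was 0.193 with a pseudocount of 0.1 CPM, 0.171 with 10 CPM, 0.273 with the highest row, 0.212 over all input genes, 0.157 as the median of input quintiles, and, chosen later, 0.187 and 0.346 without those genes and per kilobase. The share of genes with a Lin28a-RIP peak in the lowest m6A-RIP quintile was 31.3% at an input minimum of 10 CPM, against 37.8% in the highest. With the highest row per gene, 15 of 17 list medians moved and 1 turned, with shifts of -1.74 to 1.07, and 12 of the 17 lay closer to that of all genes. The one that turned was oxidative phosphorylation, at 0.69 above all genes. The cause of these shifts was not tested. Of 68 list medians with a library left out, 10 moved by more than the SD over library pairs, by at most 0.055, and none changed sign. Over all 68, the largest shift was 0.077.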
